A study of Caenorhabditis elegans with 2 samples.

Results

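Chromosome X of Caenorhabditis elegans carries 276 of the 612 tRNA genes annotated in the nuclear genome (Ensembl, assembly WBcel235, the same as ce11), and 131 of them, 47.5%, had a peak of tagged ZIM-3 within 500 bp that passed the authors' reproducibility threshold. Peaks of that list stood near 3.47% of all 46890 annotated genes and near 4.44% of the 5746 genes of X that are not tRNA genes. Of the 186 such peaks on X, 106 (57.0%) had their summit within 500 bp of a tRNA gene. The remaining 336 tRNA genes lie on the autosomes, and 124 of those, 36.9%, had such a peak. Genes of valine (11 of 14), alanine (10 of 13), asparagine (5 of 6) and glycine (14 of 20) had the highest shares on X. The 6 arginine genes with anticodon TCG, a group picked after the values were seen, had none. Genes with exactly the same sequence ranged from no region at all to some of the highest signals of the chromosome.

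The assay was ChIP-seq, in which DNA bound to a protein is pulled down with an antibody and sequenced, on whole young adult worms of strain OP581, collected 54.5 h after synchronization of starved L1 larvae. The strain has the genotype unc-119(tm4063) III; wgIs581 and carries a transgene for ZIM-3 with GFP and FLAG at its C terminus, which an anti-GFP antibody pulled down. The cells that express the transgene are not stated in the labels. The labels give pooled sexes, sonicated chromatin and 2 biological replicates of this 1 group, so there is no second condition. Values come from whole animals, and fewer cells bound at a gene cannot be told apart from less binding in each cell. Members were the genes of biotype tRNA on X, taken from the annotation without use of the measured values.

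A tRNA gene is transcribed by RNA polymerase III from a promoter that lies inside the gene. Its A box, near the 5′ end, and its B box, further downstream, are bound by the factor TFIIIC, which brings in TFIIIB and then the polymerase, and transcription ends at a run of T. ZIM-3 is a zinc finger protein known for binding the pairing centres of certain autosomes during meiosis, where homologous chromosomes find each other. A worm's genome holds many identical copies of most tRNA genes, which all give the same tRNA.

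The sequences of 6 genes among those with the highest signal are shown first, because they differ in anticodon, copy number and place; all 6 hold a B box, and C53C7.t1 alone lacks the A box consensus. Sequences were read from the RefSeq WBcel235 genome, 5′ to 3′ on the strand of the gene. Capitals mark the A box and the B box, each where its consensus was found. C04A11.t1 is the intron-containing leucine gene (anticodon CAA) at X:13665555-13665673, C53C7.t1 a serine gene (AGA) at X:13046578-13046659, F15G9.t2 an alanine gene (AGC) at X:9743747-9743818, R04D3.t2 a valine gene (TAC) at X:13307034-13307106, C02B4.t2 a tyrosine gene (GTA) with an intron at X:12665228-12665311 and F46G11.t2 a proline gene (TGG) on the minus strand at X:5801211-5801282.
C04A11.t1: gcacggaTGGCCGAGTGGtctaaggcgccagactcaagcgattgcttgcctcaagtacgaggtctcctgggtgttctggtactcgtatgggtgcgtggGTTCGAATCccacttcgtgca
C53C7.t1: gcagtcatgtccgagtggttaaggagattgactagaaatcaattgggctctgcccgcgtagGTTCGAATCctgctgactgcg
F15G9.t2: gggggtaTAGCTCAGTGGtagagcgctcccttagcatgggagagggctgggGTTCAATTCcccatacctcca
R04D3.t2: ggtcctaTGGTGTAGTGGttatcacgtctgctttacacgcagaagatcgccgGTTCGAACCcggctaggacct
C02B4.t2: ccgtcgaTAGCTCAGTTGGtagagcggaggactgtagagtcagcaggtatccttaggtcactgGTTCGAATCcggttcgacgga
F46G11.t2: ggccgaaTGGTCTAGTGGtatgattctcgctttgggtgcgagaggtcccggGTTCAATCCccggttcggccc

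The B box in the form GTTCNANNC was found in 268 of the 276 X genes when both strands were searched, against 15 of 530 windows of the same length placed 1000 bp away from the genes (2.83%). The narrower form GTTCGANNC, which is contained in the first, was found in 200 X genes (72.5%) and in 0.566% of the windows. An A box that starts within the first 12 bases was found in 258 genes on the gene's own strand, and in 2.64% of the windows on either strand. A run of at least 4 T within 30 bases of the 3′ end followed 273 genes. The internal boxes are therefore near constant over these genes. They are part of a tRNA gene's own sequence, so their presence in genes annotated as tRNA was largely fixed in advance. The contrast with the windows describes the annotation and says nothing about ZIM-3.

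Signals are the authors' own values for each region, on a scale that the files do not define, and they differ in level between lists, so values are compared only within a list. The lists for the pooled reads and for each replicate hold 30000 regions each and include background. A summit of the pooled list lay within 500 bp of 245 X tRNA genes (88.8%), of the replicate 1 list for 245 and of the replicate 2 list for 244, while the corresponding shares of all annotated genes were 40.2%, 40.7% and 39.9%. Of the autosomal tRNA genes, 266 had a pooled region (79.2%). A region was present in all 3 lists for 229 X genes and in none of them for 19.

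Where a gene had a region, its signal was mostly above the median region of the same list. In the pooled list the X genes had a lowest signal of 52.7, a median of 147 and a highest of 402, and the median of all 30000 regions was 67.4. In replicate 1 the lowest, median and highest were 39.7, 105 and 301, with a median of all regions of 51.2. In replicate 2 they were 15.4, 39.4 and 127, with a median of all regions of 20.7. By rank, counted from the highest signal, the median X gene stood at 782 of the pooled list, 944 of replicate 1 and 1323 of replicate 2.

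The authors' list of reproducible peaks, thresholded on the irreproducible discovery rate (IDR), holds 906 peaks, and the same 906 regions head the pooled list by signal, down to 140.7. Having an IDR peak is thus the same as having a pooled signal of at least that value. Just inside the threshold were rtw-5, a tryptophan gene, at 141.9, and K09C8.t1, a glycine gene, at 142.2, and just outside it were ZK678.t2, a proline gene, at 140.5 and C40H5.t1, a leucine gene, at 140.1. By rank in the pooled list these 4 genes lay between 884 and 917, and the replicates ranked each of them further apart. In replicates 1 and 2, rtw-5 ranked 988 and 663, K09C8.t1 1207 and 2350, and C40H5.t1 1334 and 672. ZK678.t2 ranked 3495 in replicate 1 and 208 in replicate 2, at different summits, −133 bp and 13 bp from its start. The split into genes with and without an IDR peak divides a continuous range of signals, as the plot of signal by amino acid shows.

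**Figure D1:**
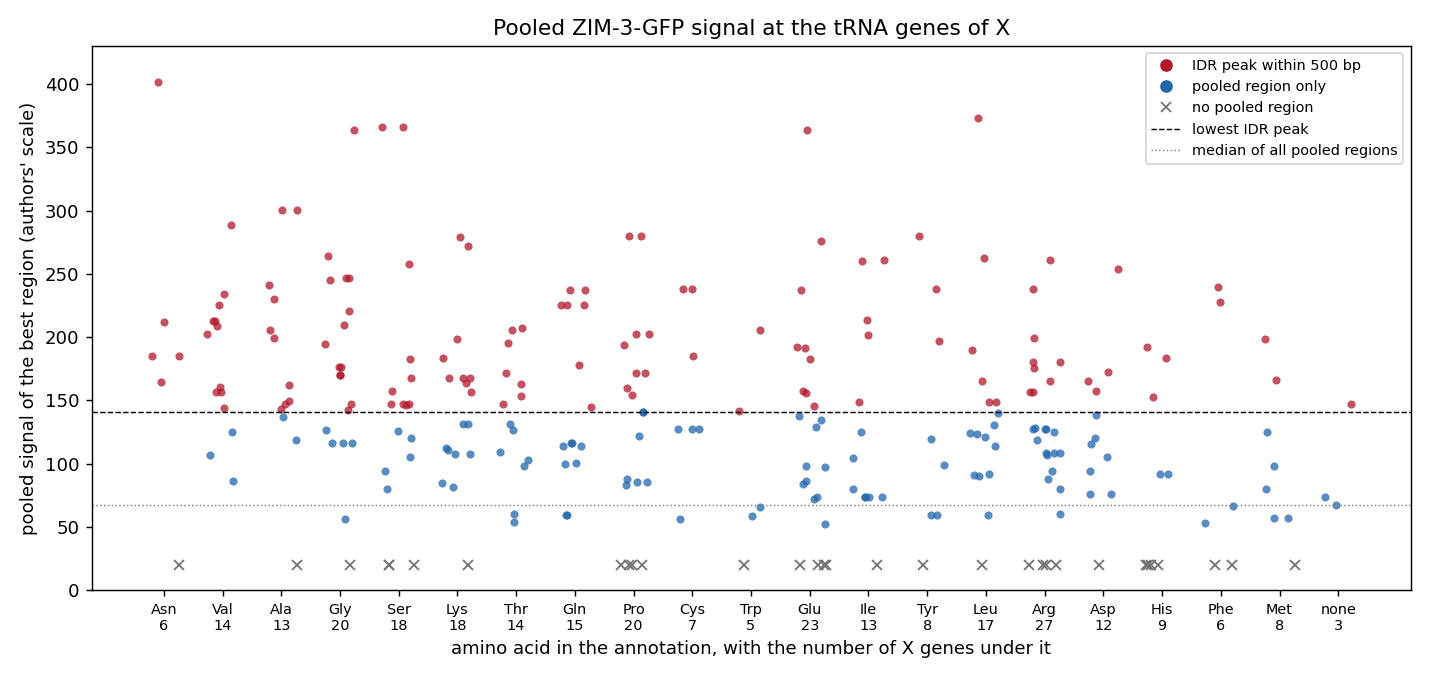
Pooled signal (vertical axis, the authors' scale) of the best region within 500 bp of each X tRNA gene, by amino acid, ordered by the share of genes with an IDR peak. Red points are genes with an IDR peak, blue points genes with a pooled region only and crosses genes with no pooled region; the dashed line is the lowest IDR peak (140.7) and the dotted line the median of all pooled regions (67.4), and every amino acid has genes on both sides of the dashed line or without a region.

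Both replicates had a region at 232 X genes, and their signals were correlated across those genes (Spearman's rho 0.726, a description across genes that share the same libraries). Each of the 131 X genes with an IDR peak had a summit of each replicate within 200 bp of the peak's summit. Among the 906 regions of highest signal in each replicate's own list, replicate 1 had one near 121 X genes and replicate 2 near 107, and 85 genes had one in both. The summits of the replicates lay within 50 bp of each other at 148 of the 232 genes. Their median distance was 30 bp at genes with an IDR peak and 38 bp at the others.

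**Figure D2:**
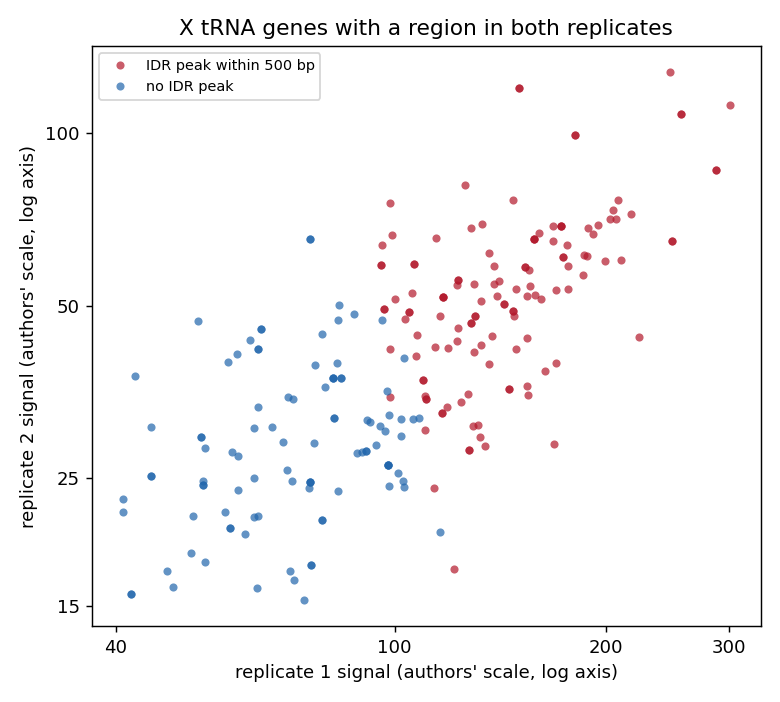
Signal of the best region in replicate 1 (horizontal) and replicate 2 (vertical), both on the authors' scale and log axes, for the 232 X tRNA genes with a region in both. Red points are genes with an IDR peak and blue points the other genes; genes high in 1 replicate tend to be high in the other (rho 0.726), with a wide spread.

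The highest gene of the chromosome was F41D9.t3, an asparagine gene (GTT) at X:8404499-8404571 in an intron of sulp-3, on the strand opposite to it. Its signal was 301 in replicate 1, 112 in replicate 2 and 402 in the pooled list, where it ranked 29. It ranked 27 in each replicate. C04A11.t1, the leucine gene shown above, which has no identical copy in the genome, had 247 in replicate 1, 127 in replicate 2 and 373 in the pooled list. Both replicates thus placed these genes among their 55 strongest regions, and replicate 2 ranked C04A11.t1 as high as 14.

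Next came 2 divergent pairs with 1 summit between their genes. The serine genes C53C7.t1 (AGA) and C53C7.t2 (CGA) shared a region of 287 in replicate 1, 86.0 in replicate 2 and 366 in the pooled list. The glycine gene M02F4.t1 (TCC, X:3036164-3036235) and the glutamate gene M02F4.t2 (CTC, X:3035976-3036047) shared one of 256 in replicate 1, 108 in replicate 2 and 363 in the pooled list. A summit that serves both genes of a pair cannot be assigned to either. F15G9.t1 (TGC) and F15G9.t2 (AGC), alanine genes in tandem in an intron of him-4, shared 249 in replicate 1, 64.7 in replicate 2 and 300.3 in the pooled list. Replicates differed most in rank at the proline pair F46G11.t1 and F46G11.t2, with 150.5 (rank 295) in replicate 1 and 120 (rank 22) in replicate 2, and 279.7 in the pooled list, among the 12 summits of highest pooled signal.

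The other genes among those 12, each the gene nearest to its summit, were R04D3.t2 (valine, pooled signal 289), C02B4.t2 (tyrosine, 280.2), W03G11.t1 (lysine, 279), C28G1.t1 (glutamate, 276), C33G3.t2 (lysine, 272) and F17H10.t1 (glycine, 264). They lay between genes or in introns, apart from C28G1.t1, which overlaps an exon of C28G1.2 on the same strand and is the 1 X gene with such an overlap. Replicate 1 ranked these 6 between 84 and 141, and replicate 2 between 121 and 168. The 2 replicates therefore placed all 6 in the upper part of the IDR range.

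Summits lay on the genes or close to them. Taking for each of the 104 distinct IDR summits used the tRNA gene nearest to it, the median summit was 30.5 bp downstream of the gene's start, with quartiles at −14.25 bp and 60.25 bp and extremes at −64 bp and 149 bp. The median gene is 72 bp long. Of these summits 54 (51.9%) were inside the gene, 32 upstream and 18 downstream. The autosomal summits were placed alike, at a median of 31 bp, with 59 of 109 (54.1%) inside. The difference was not tested, since summits are not replicates.

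**Figure D3:**
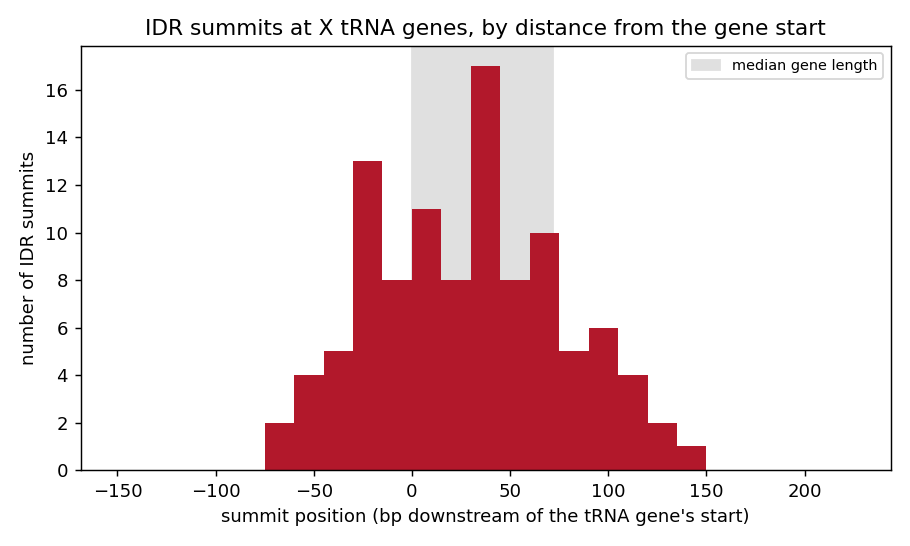
Number of IDR summits (vertical axis) by distance in bp downstream of the start of the nearest X tRNA gene (horizontal axis, in the direction of transcription), for 104 summits. The grey band is the median gene length of 72 bp; 54 summits are inside their gene and the median is 30.5 bp.

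By amino acid the share of X genes with an IDR peak spanned a wide range, on small numbers of genes that often share summits and sequences. Valine had 11 of 14 X genes and 35.3% of its autosomal genes. Alanine had 10 of 13 on X and 47.6% on the autosomes, glycine 14 of 20 and 28.6%, and asparagine 5 of 6 and 28.6%. Serine (10 of 18), lysine (9 of 18) and threonine (7 of 14) were in the middle of the range. At the low end were methionine (2 of 8 on X, 50% on the autosomes), aspartate (4 of 12 and 53.3%), arginine (9 of 27 and 52.9%), histidine and phenylalanine. The order on X was not that of the autosomes, and none of these differences was tested.

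Within an amino acid, genes for different anticodons also differed. The anticodon was read from the sequence for 271 genes. Of the 10 valine genes with AAC, 9 had an IDR peak. For alanine it was 6 of 9 genes with AGC and 3 of 3 with TGC, and for glycine 11 of 16 with TCC and 3 of 4 with GCC. Glutamate had 5 of 8 genes with TTC and 4 of 15 with CTC. Arginine had 6 of 13 genes with ACG, 3 of 4 with TCT, 0 of 6 with TCG, 0 of 2 with CCT, 0 of 1 with CCG and 0 of 1 with ATG. Many of these groups hold only a few genes, and genes share summits. The 9 AAC valine genes used 7 summits and the 11 TCC glycine genes used 8. F15G9.t1 (TGC) and F15G9.t2 (AGC) shared a summit that counts for both alanine anticodons. The differences between anticodons were not tested.

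The TCG arginine genes, with no IDR peak, and the AAC valine genes, with 9 of 10, are set against each other. Both groups were picked as extremes among the anticodons after their values were seen, so their contrast is a description. A gene of each is shown with the consensus boxes in capitals. F49E7.t3 is at X:1089173-1089245 on the minus strand and T01B4.t1 starts the tandem valine cluster on the plus strand.
F49E7.t3: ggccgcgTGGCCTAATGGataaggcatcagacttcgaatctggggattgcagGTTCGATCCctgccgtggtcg
T01B4.t1: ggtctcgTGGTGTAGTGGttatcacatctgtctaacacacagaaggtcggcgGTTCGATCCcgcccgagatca

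Both sequences hold an A box and a B box. Among the 6 TCG genes, F49E7.t2 and F49E7.t3 had the same region within 500 bp, of 75.7 in replicate 1, 24.6 in replicate 2 and 108 in the pooled list. Its pooled summit lies inside another gene of the cluster, F49E7.t1, annotated as arginine although the anticodon read was ATG. That summit is 186 bp upstream of F49E7.t3 and 407 bp upstream of F49E7.t2. C36C9.t2 had a pooled signal of 88.2, F17A2.t1 of 79.7 and C34E11.t1 of 60.0, and F38E9.t2 had no region in any list. All 6 were thus under the IDR threshold of 140.7, with F38E9.t2 being identical in sequence to the F49E7 pair. Among the 10 AAC genes pooled signals reached 234 (F49E2.t1), and T01B4.t2, at 125, was the 1 gene under the threshold.

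Many X tRNA genes are exact copies of each other, and this gives a comparison in which the annotated gene sequence is held the same. The signal is that of the best region within 500 bp, which can be shared with a gene of another sequence. Such shared regions give the highest values of the alanine (F15G9.t2, 300.3), serine (C53C7.t1, 366) and glutamine (H35N09.t1, 237) families, among others. The ratios that follow include them. The 276 genes have 106 distinct sequences. In 20 families of at least 5 identical X genes, with 162 genes in all, the highest signal was between 2.08 and 6.44 times the lowest measured one, with a median of 3.68. In 19 of the 20 families some members had an IDR peak and others had none. The exception was the asparagine (GTT) family, where 5 of 5 genes had one, at 165 to 402. As 131 of all 276 X genes (47.5%) had an IDR peak, most groups of at least 5 genes would be mixed whatever their sequence. Over all X genes with a region, signals ran from 52.7 to 402, and no baseline for the ratios within families was drawn from unrelated genes.

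**Figure D4:**
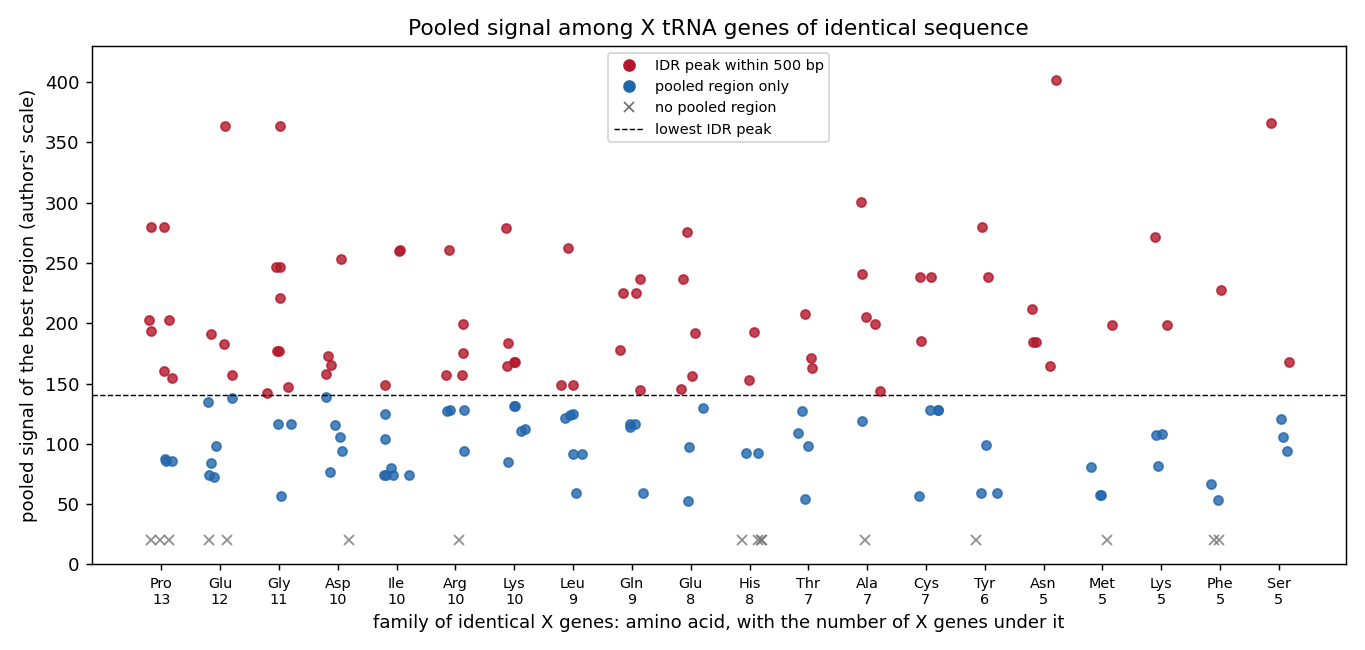
Pooled signal (vertical axis, the authors' scale) of the members of the 20 families of at least 5 X tRNA genes with identical sequence. Points and crosses are as in the plot of signal by amino acid and the dashed line is the lowest IDR peak; 19 families have members on both sides of the line or without a region.

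The extremes were far apart in the 3 largest families and in aspartate, which has 10 X genes like isoleucine, arginine and lysine and was taken as the fourth by coordinate. The 13 identical proline genes (TGG) reached 279.7 at F46G11.t2, while ZK678.t3 had no region in any list. The 12 glutamate genes (CTC) reached 363 at M02F4.t2, with none in any list at F52E10.t3, and the 11 glycine genes (TCC) reached 363 at M02F4.t1, with 56.4 at R04E5.t4. The region of 363 is the one shared by M02F4.t1 and M02F4.t2, and that of 56.4 has its summit inside the cysteine gene R04E5.t5, 543 bp from the start of R04E5.t4. The 6.44-fold ratio of the glycine family therefore rests on summits shared with genes of another sequence. The 10 aspartate genes (GTC) had their highest at F38G1.t2, an intronic gene of egl-17, with 188 in replicate 1, 60.9 in replicate 2 and 254 in the pooled list, while F22F1.t1 had no region.

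Families whose copies are all on X show the same spread, and 3 pairs of highest and lowest members are shown with the 50 bases before the gene and 20 bases after it. The genes are identical from the first base to the last, so the letters that differ are those on either side. Capitals again mark the A and B boxes. Arginine (ACG) has 10 copies, all on X, from C18A11.t2 at X:8036685-8036757 to C03A3.t1 at X:11252590-11252662, both on the minus strand. Leucine (AAG) has 9 copies, from F14B8.t1 at X:6903114-6903195 to C48C5.t4 at X:8955920-8956001, both on the minus strand. Tyrosine (GTA) has 6 copies, from C02B4.t2 to R11.t2 at X:16209228-16209311 on the minus strand.
C18A11.t2: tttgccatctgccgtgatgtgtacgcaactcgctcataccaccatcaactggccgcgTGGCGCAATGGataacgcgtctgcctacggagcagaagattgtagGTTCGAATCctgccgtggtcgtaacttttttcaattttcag
C03A3.t1: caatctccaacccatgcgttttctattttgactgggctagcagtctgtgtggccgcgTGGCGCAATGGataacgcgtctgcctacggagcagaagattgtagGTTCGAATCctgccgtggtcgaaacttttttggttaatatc
F14B8.t1: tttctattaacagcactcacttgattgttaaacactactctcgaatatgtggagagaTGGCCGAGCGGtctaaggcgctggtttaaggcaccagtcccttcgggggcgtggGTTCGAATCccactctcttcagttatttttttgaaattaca
C48C5.t4: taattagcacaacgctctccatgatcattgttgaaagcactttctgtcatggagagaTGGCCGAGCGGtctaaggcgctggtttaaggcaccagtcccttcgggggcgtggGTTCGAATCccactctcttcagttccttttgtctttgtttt
C02B4.t2: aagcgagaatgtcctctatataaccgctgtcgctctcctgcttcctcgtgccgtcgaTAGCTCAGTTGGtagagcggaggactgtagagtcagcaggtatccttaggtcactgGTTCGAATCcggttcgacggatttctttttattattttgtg
R11.t2: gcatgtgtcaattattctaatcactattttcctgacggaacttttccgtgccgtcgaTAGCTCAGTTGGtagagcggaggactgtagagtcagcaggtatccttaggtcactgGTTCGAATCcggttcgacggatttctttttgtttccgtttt

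C18A11.t2 had 223 in replicate 1, 44.1 in replicate 2 and 261 in the pooled list, while C03A3.t1 had no region in replicate 1 or in the pooled list and 24.1 in replicate 2. F14B8.t1 had 210.4, 60.0 and 263 in replicate 1, replicate 2 and the pooled list, and C48C5.t4 had 48.3, 16.2 and 59.3. C02B4.t2 had 208 in replicate 1, 76.2 in replicate 2 and 280.2 in the pooled list, whereas R11.t2 had 21.4 in replicate 2 alone. In each pair the gene of higher pooled signal was also the higher, or the one with a region, in both replicates. For C18A11.t2, however, the replicate 2 value belongs to a summit 304 bp downstream of the gene's start. Its summit lay at 60 bp in replicate 1 and at 83 bp in the pooled list. The members of these pairs were chosen for their pooled signals, so their differences are a description. How reads that match several identical copies were assigned is not stated in the files or labels used here, and its part in these differences was not tested.

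The tryptophan genes give a small example with known genetics. sup-7, sup-21, sup-28 and sup-33 are loci first known from amber suppressor mutations, in which the tRNA reads a stop codon, and their 4 annotated sequences are identical. sup-7, in an intron of C03B1.2, had 155 in replicate 1, 52.0 in replicate 2 and 205 in the pooled list. sup-28 and sup-33, neighbours in introns of trk-1, had 57.3 and 40.9 in replicate 1, shared 21.9 in replicate 2 and had 65.8 and 59.1 in the pooled list, and sup-21 had no region in any list. Of the 4, sup-7 alone had an IDR peak, and it was above sup-28 and sup-33 in both replicates. Some of these summits lay far from the genes. The shared one of replicate 2 was at −432 bp from the start of sup-28 and 496 bp from that of sup-33. For sup-33 the pooled summit was 421 bp from its start. The fifth tryptophan gene, rtw-5, which has no identical copy, had a pooled signal of 142.

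Copy number and uniqueness were given beside these results because they bear on how reads can be placed. Of the 57 X genes with no identical copy in the genome 23 had an IDR peak (40.4%), and of the 219 with at least 2 copies 108 (49.3%). The share of 36-base words that occur once in the genome, over the gene and 250 bp on either side, had a median of 90.3% at genes with an IDR peak and 84.7% at the 31 genes with no pooled region. Where it was 90% or more, 74 of 153 genes had an IDR peak, between 50% and 90% it was 56 of 117, and under 50% it was 1 of 6. Of the 31 genes with no pooled region 4 were under 50%, and the rest were above it. Its part in the shares was not tested.

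The clearest case of low uniqueness was the histidine cluster F28H6.t2 to F28H6.t5, 6 identical genes within 1966 bp at X:14135045-14137010. Uniqueness there ran from 5.21% to 80.1%. F28H6.t2 and F28H6.t7 shared a pooled region of 92.3 and the other 4 had none, while the 2 members of the same family that lie alone, C49F5.t1 and C06G1.t1, had 192 and 153 with an IDR peak each. The part of uniqueness in this difference was not tested.

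Clustering was compared next, taking genes within 1000 bp of a neighbour as clustered. Of the 135 clustered X genes 64 had an IDR peak (47.4%), and of the 141 single ones 67 (47.5%). This difference of −0.11 percentage points depended on the window, and was −18.7 with the summit inside the gene, −8.26 within 200 bp and 10.3 within 1000 bp. The 64 clustered genes used 37 summits, whereas the 67 single ones had a summit each. The shares differed by cluster size. Genes in the 39 clusters of 2 had an IDR peak in 45 of 78 cases (57.7%), in the 9 clusters of 3 in 12 of 27 (44.4%), and in the 6 clusters of 4 or more in 7 of 30 (23.3%).

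Among the 6 largest clusters the pattern was uneven. The 6 genes from F22F1.t2 to F22F1.t7, for serine, aspartate, isoleucine and methionine, had pooled signals of 105 to 125 and no IDR peak. The 5 arginine and cysteine genes from K01A12.t1 to K01A12.t3 shared 1 region of 128. In contrast 3 of 5 glutamine genes of the H08J11 cluster and 3 of 4 valine genes of the T01B4 cluster had an IDR peak. The 3 H08J11 genes shared 1 region of 225, with its summit inside H08J11.t3. T01B4.t3 and T01B4.t4 shared 1 region of 157. In the tyrosine cluster, 4 identical genes of R11, only R11.t1 had one, at 168 in replicate 1, 64.7 in replicate 2 and 238 in the pooled list. R11.t3 and R11.t4 shared a pooled region of 59.4 and R11.t2 had none, so 1 of 4 identical genes within 1590 bp stood above the threshold.

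Neighbouring genes in clusters were arranged in 25 divergent, 17 convergent and 39 tandem pairs. At least 1 gene of the pair had an IDR peak in 15 divergent pairs (60%), 10 convergent (58.8%) and 18 tandem pairs (46.2%). A single summit served both genes in 13 divergent, 7 convergent and 7 tandem pairs. In the 13 divergent pairs 9 summits lay between the genes, 3 inside a gene and 1 outside the pair. Median gaps were 161 bp for divergent, 178 bp for convergent and 409 bp for tandem pairs, and with gaps of this size 1 region can reach both genes.

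By strand, 69 of 136 plus-strand genes (50.7%) and 62 of 140 minus-strand genes (44.3%) had an IDR peak, with median pooled signals of 152 and 141. With a summit required inside the gene the difference turned round, to −3.05 percentage points. Genes in introns of coding genes had an IDR peak in 47 of 95 cases (49.5%) and intergenic ones in 83 of 180 (46.1%). Intronic genes opposite to their host had one in 25 of 45 cases (55.6%), and those on the same strand in 22 of 50 (44%). Over the left, middle and right parts of X, of equal length, the shares were 24 of 51, 51 of 107 and 56 of 118, close to 47% in each.

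Genes in which the A box consensus, as searched here, was not found are described next. Of the 18 X genes without one, 13 were serine genes, such as C53C7.t1 above, and 7 of the 13 had an IDR peak. Within the A box stretch each of the 13 differs at 1 base from E03E2.t1, a serine gene in which the consensus was found. They thus miss the consensus narrowly, and are not known to lack a working A box. The other 5 genes had none, and 3 of them had no pooled region. This group of 5 was singled out after its values were seen. F08F1.t3 (leucine, X:8409296-8409377, minus strand), K01A12.t1 (arginine, X:8623603-8623675), C34E11.t1 (arginine, X:11806588-11806660, minus strand), C31E10.t1 (glycine, X:14010253-14010324) and F52E10.t2 (glutamate, X:16274498-16274569) follow, with the B box in capitals.
F08F1.t3: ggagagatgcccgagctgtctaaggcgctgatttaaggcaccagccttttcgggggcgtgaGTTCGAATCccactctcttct
K01A12.t1: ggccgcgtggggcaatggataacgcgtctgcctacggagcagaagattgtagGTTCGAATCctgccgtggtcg
C34E11.t1: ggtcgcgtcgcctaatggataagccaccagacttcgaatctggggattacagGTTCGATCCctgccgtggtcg
C31E10.t1: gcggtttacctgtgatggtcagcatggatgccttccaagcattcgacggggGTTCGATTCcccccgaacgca
F52E10.t2: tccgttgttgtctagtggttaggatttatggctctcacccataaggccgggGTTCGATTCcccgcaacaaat

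None of the 5 has an identical copy in the genome, and all keep a B box. Positions are counted from 1 at the 5′ end of the gene, with the base of the closest tRNA gene first. The closest gene was sought among those of the same length that hold the A box consensus, so a difference there was fixed in advance. K01A12.t1 differs from C14F11.t1 and its identical copies by C11G alone, F52E10.t2 from C39D10.t1 by G9T, G69A and A72T, and C34E11.t1 from C36C9.t2 by C3T, G9C, G24C and G49A. C14F11.t1 had a pooled signal of 199 with an IDR peak, and 5 of the 10 genes of its sequence had one. The region of 128 counted for K01A12.t1 has its summit 357 bp from the gene's start and serves its whole cluster. K01A12.t3, which has the sequence of C14F11.t1, lies in that cluster and has the same region. C39D10.t1 and C36C9.t2, the closest genes of F52E10.t2 and C34E11.t1, had 86.0 and 88.2 and no IDR peak either. These comparisons thus do not separate the genes by the A box, whose part was not tested. F08F1.t3 and C31E10.t1 differ from their closest genes at 8 and 7 bases.

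Over all X genes, 124 of 258 with the A box consensus had an IDR peak (48.1%) and 7 of 18 without it (38.9%). All 7 were serine genes. A pooled region was present at 89.9% of the genes with the consensus and 72.2% of those without it. With GTTCNANNC 126 of 268 genes had an IDR peak (47.0%), and without it 5 of 8 (62.5%). Those 5 genes used 4 summits. The summit counted for C28G1.t5, at −222 bp from its start, lay inside C28G1.t4, which holds that form. None of these differences was tested. Of the 200 genes with GTTCGANNC 94 had an IDR peak (47%), and of the 76 without it 37 (48.7%). Of the 12 genes with an intron 5 had one (41.7%). Small RNA genes of other classes (snoRNA, snRNA, miRNA or rRNA) lay within 500 bp of 4 X tRNA genes, 2 of which had an IDR peak, at most 183 at M163.t2. A protein-coding gene started within 500 bp of 29 of the X tRNA genes, of which 16 had an IDR peak.

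Set beside the autosomes, the X genes had an IDR peak more often, 131 of 276 against 124 of 336, a difference of 10.6 percentage points. Counting genes within 1000 bp of each other once gave 102 of 195 loci on X (52.3%) and 102 of 281 on the autosomes (36.3%). The order held in single genes (47.5% on X and 34.0% on the autosomes) and in clusters of 2 (57.7% and 38.5%), but not in clusters of 3 (44.4% and 73.3%, on 27 and 15 genes) or of 4 or more (23.3% and 37.5%, on 30 and 8 genes). With the summit required inside the gene the difference was 2.07 points. By chromosome the autosomal share reached 46.9% on III, with 30 of 64 genes, and was 28.2% on V, with 22 of 78. Chromosome III was therefore close to X, and the difference was not tested.

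**Figure D5:**
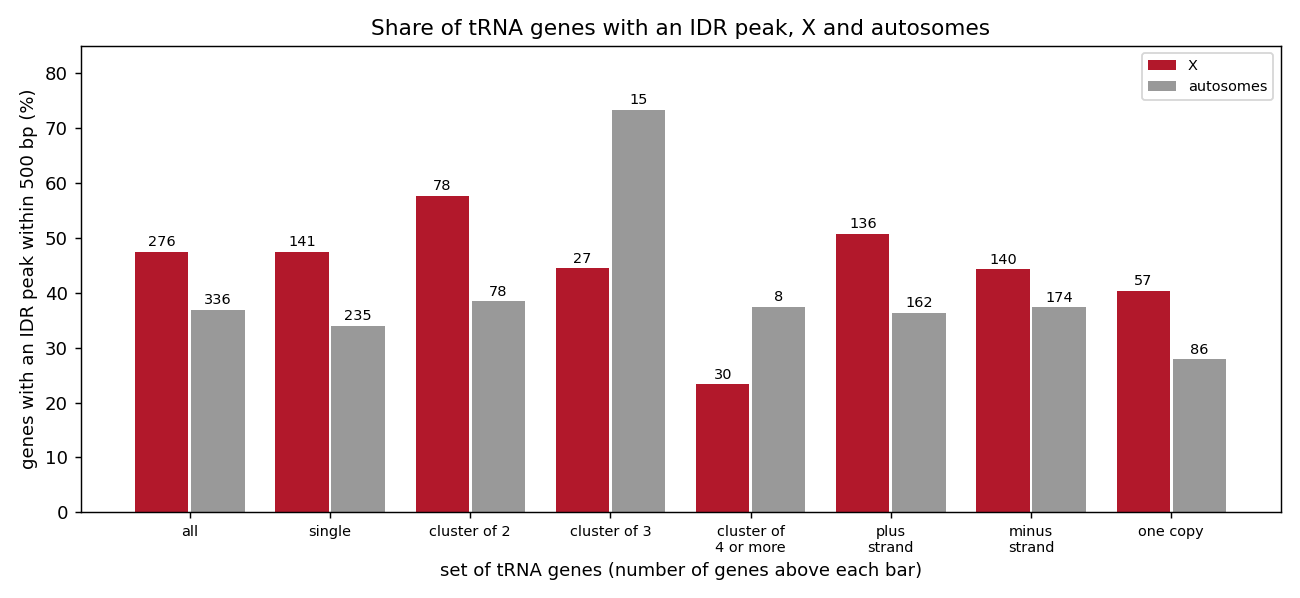
Share of tRNA genes with an IDR peak within 500 bp (vertical axis, percent) on X (red) and on the autosomes (grey), for all genes and by clustering, strand and copy number, with the number of genes above each bar. The X bar is higher than the autosomal one in each set except clusters of 3 and of 4 or more.

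Genes whose products make, charge and process tRNAs were looked up within 1000 bp of their starts, where 2.5% of protein-coding genes have an IDR peak. Of 17 RNA polymerase III and associated factor genes 1 had such a peak, rpac-19, a subunit shared by polymerases I and III, at a pooled signal of 166. Of 20 cytosolic aminoacyl-tRNA synthetase genes, whose enzymes load tRNAs with their amino acids, 0 had one, and the highest was mars-1 at 127. Of 12 tRNA processing and modification genes 1 had one, rpr-1, the RNA component of RNase P, which trims the 5′ end of tRNA precursors. Its pooled signal of 638, rank 7 of the list, was higher than that of every tRNA gene on X, and rpr-1 is itself a small RNA gene rather than a protein-coding one.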

How the data were processed

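ChIP-seq of 2 biological replicates was analysed from region lists on ce11. Per the deposited file descriptions, the authors made lists of peaks and background from each replicate and from pooled replicates, each with a control file, and 1 list thresholded on IDR. The sources used here do not state the aligner, the peak caller, their versions or the handling of reads with several matches. Column 7 holds the signal of each region as deposited by the authors, and column 10 the offset of its summit. The deposited lists on ce10 were not used. The files give no read counts, so depth is unknown and no interval could be given.

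For each gene the region of highest signal with its summit within 500 bp was taken (Python 3.11.15, numpy 2.4.6, scipy 1.17.1), figures with matplotlib 3.10.9. Scripts were tested on simulated data. Amino acids came from the RefSeq annotation. Anticodons were read as the loop of 7 bases closed by a stem of 5 with at least 4 pairs. Genes were named by rank of signal, among all X genes, by amino acid, in the 4 largest identical families, in the 3 largest clusters and at the IDR threshold, and genes outside that rule were chosen after their values were seen. Members and lists were chosen with earlier results of these data known. With 1 group, and genes that share summits, no test was made. Alternatives changed the window, the peak list, the replicate, the joining of genes and the genes counted.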

Additional observations from a re-analysis of the deposited data

How the results depend on the processing

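Of 54 alternatives to 6 results, 24 were labelled as keeping direction and size, 24 as moving the value and 6 as reversing a difference. The labels follow unlike rules. A count was kept if it stayed within a set fold, a wide limit. A median or difference was kept if it changed by less than the standard deviation between the 2 replicates. For X minus autosomes that was only 0.22 points, so small changes there are among those that moved. The cause of a change was not tested beyond what an alternative's own construction fixes. Leaving out a replicate used the other's own list, with its 906 highest regions in place of the IDR peaks. The count of X genes with an IDR peak (131) was 55 with the summit inside the gene, 81 with IDR peaks above that list's median signal, 245 with any pooled region and 23 of the one-copy genes, and lay between 107 and 121 with 1 replicate left out. The count with a pooled region (245) was 105 with the summit inside the gene and 47 among one-copy genes. X minus autosomes (10.6 percentage points) stayed positive throughout, at 6.87 within 200 bp, 13.5 within 1 kb, 2.07 inside the gene, 8.51 above the median IDR signal, 10.9 with summits of both replicates within 200 bp, 9.60 with any region, 16.0 with joined genes, 12.1 with the B box and 12.4 for one-copy genes, and 9.60 to 9.91 with 1 replicate left out. Clustered minus single genes (−0.11) was −8.26 within 200 bp, 10.3 within 1 kb, −18.7 inside the gene, −5.25 above the median IDR signal, 0.236 with any region, 5.69 with a cluster gap of 500 bp and −1.72 to 3.86 with 1 replicate left out. Plus minus minus strand (6.45) was 10.9 within 1 kb, −3.05 inside the gene, 3.03 above the median IDR signal, −1.05 with any region, 9.33 with joined genes and 3.30 to 6.34 with 1 replicate left out. Leaving out a replicate was not run for the median signal, since the replicate lists are on another scale. No paired analysis was possible because there is 1 group. With 2 replicates and no counts, the files limit every value to a description.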
